A study of Mus musculus with 12 samples.

Results

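The hearts of 12 mice were divided by the level of 1 transcript, Neat1, without regard to genotype. The 2 groups were chosen by measured Neat1 levels, in counts divided by the column total of the library and scaled to 1000000 (unscaled CPM). Hearts with at least 450 are called Neat1-high, and the others Neat1-low. All 12 hearts of the study fall into the comparison, 6 on each side, and each side holds 3 hearts of each genotype. The Neat1-high group consists of KI 3, KI 4, KI 5, WT 1, WT 4 and WT 6, and the Neat1-low group of KI 1, KI 2, KI 6, WT 2, WT 3 and WT 5. All mice were C57BL/6N, untreated and 9 months old, and each gave 1 RNA-seq library from heart tissue. The KI animals carry the p.L13R substitution in Lemd2, which encodes a LEM-domain protein of the inner nuclear membrane. Whether 1 or both copies carry it is not given in the sources used here. The WT animals are wild type at Lemd2. The groups were made from a measured value, so the p-values below say how firmly another gene follows the split and measure no effect of a treatment.

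Neat1 is a long noncoding RNA that stays in the nucleus and forms the scaffold of paraspeckles, bodies built from the RNA and a set of RNA-binding proteins. Paraspeckles lie next to nuclear speckles, which store splicing factors such as the serine- and arginine-rich SR proteins. Many transcripts of splicing factors are themselves partly kept in the nucleus with introns still in place, and CLK kinases, which phosphorylate SR proteins, act on how those introns are removed.

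Neat1 (GeneID 66961, chromosome 19, 5824708 to 5845480 on the minus strand of GRCm38.p6) was the value that made the split, and its levels are given as a description with no test. It had 986, 704 and 889 unscaled CPM in KI 3, KI 4 and KI 5, and 541, 588 and 566 in WT 1, WT 4 and WT 6. In the Neat1-low group it had 254, 394 and 242 unscaled CPM in KI 1, KI 2 and KI 6, and 207, 310 and 213 in WT 2, WT 3 and WT 5. The mean was 712 ± 186 in Neat1-high and 270 ± 71.1 in Neat1-low hearts (SD, n = 6 each). WT 1 (541) stood just inside the boundary and KI 2 (394) just outside it. The gap between the groups was also there when the genes of the mitochondrial chromosome were left out of the total, with 820 to 1438 in Neat1-high and 330 to 590 in Neat1-low hearts.

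Several properties of the libraries are given along the split, and the total count and the mitochondrial share overlapped between the groups. The total count was 27.9 to 44.1 M in Neat1-high and 38.3 to 44.6 M in Neat1-low hearts. KI 3, KI 4 and KI 5 had smaller totals (27.9, 34.9 and 31.8 M) than the other 9 hearts, and their titles carry consecutive animal numbers. Every title states an age of 9 months, but among KI hearts only the library names of these 3 hold the tag 9m. Among KI hearts the split is therefore the same division as that tag, and the 2 cannot be told apart. The titles of KI 1 and KI 2 hold joined numbers, and those of KI 2 and KI 6 the tags old and new, whose meaning is not given in the sources used here. Among WT hearts, WT 1 and WT 6, both Neat1-high, have animal numbers near each other, as have WT 2 and WT 5, both Neat1-low. The numbers of WT 3 and WT 4 are also near each other, but WT 3 is Neat1-low and WT 4 Neat1-high. Among WT hearts the totals overlapped, at 39.1 to 44.1 M in Neat1-high and 38.3 to 44.6 M in Neat1-low hearts. The mitochondrial chromosome took 30.9% to 38.6% of counts in Neat1-high and 31.7% to 40.4% in Neat1-low hearts. With the mitochondrial share as a covariate the split gave 867 genes higher and 221 lower. The values without KI 3, KI 4 and KI 5 are given beside the results. That fit holds no Neat1-high KI heart, so its fold changes along the split come from the WT hearts alone. The part of the total count was not tested.

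The promoters of 3 transcripts that mark the split are shown because the 3 genes moved together, as described next. The sequences are RefSeq promoter windows of 300 bases on GRCm38.p6, written 5′ to 3′ along the gene's strand. Leng8 lies at chr7:4136806-4137105 (plus strand), Srsf11 at chr3:158036557-158036856 (minus strand) and Son at chr16:91647574-91647873 (plus strand). Capitals mark the GC box GGGCGG, the CCAAT box and the ETS core CCGGAAG on either strand.
Leng8: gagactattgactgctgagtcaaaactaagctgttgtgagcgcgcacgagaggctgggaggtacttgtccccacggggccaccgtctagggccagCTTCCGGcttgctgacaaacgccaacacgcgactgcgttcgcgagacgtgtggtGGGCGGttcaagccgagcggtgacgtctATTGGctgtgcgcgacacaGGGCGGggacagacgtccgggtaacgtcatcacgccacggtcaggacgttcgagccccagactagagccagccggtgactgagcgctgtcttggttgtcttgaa
Srsf11: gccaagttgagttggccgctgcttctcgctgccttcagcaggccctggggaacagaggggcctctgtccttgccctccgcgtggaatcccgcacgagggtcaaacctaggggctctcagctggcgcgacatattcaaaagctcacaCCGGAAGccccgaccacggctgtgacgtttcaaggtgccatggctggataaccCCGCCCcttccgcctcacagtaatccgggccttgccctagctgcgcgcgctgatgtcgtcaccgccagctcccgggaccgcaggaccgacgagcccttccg
Son: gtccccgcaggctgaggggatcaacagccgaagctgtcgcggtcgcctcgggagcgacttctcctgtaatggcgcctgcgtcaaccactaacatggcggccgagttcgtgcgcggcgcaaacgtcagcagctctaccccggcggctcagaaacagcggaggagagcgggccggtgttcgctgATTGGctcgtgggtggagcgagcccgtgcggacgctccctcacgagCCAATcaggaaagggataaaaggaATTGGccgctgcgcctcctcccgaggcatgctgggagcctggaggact
The Leng8 window held 2 GC boxes, 1 CCAAT box and 1 ETS core, the Srsf11 window 1 GC box and 1 ETS core, and the Son window 3 CCAAT boxes. No motif stood in all 3 windows, and neither TATAAA nor TGACGTCA, which were also searched on both strands, stood in any of them. Among promoters with a RefSeq entry, the GC box stood in 63.6% of 674 protein-coding genes called higher in Neat1-high hearts, against 62.1% of 11324 tested protein-coding genes and 36.0% of all 26983 promoters in the table. The ETS core stood in 17.4%, 16.9% and 9.14% of the same 3 sets. The CCAAT box stood in 35.9%, 38.8% and 38.1% of them, and in 51.1% of 131 genes called lower.

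The 4 transcripts proposed as markers of the split, Leng8, Srsf11, Pnisr and Son, were each higher in every Neat1-high heart than in any Neat1-low heart. They were picked with earlier results of these data known, so their p-values are no independent support for the split. LENG8 is a nuclear protein linked to mRNA export, SRSF11 and PNISR are serine- and arginine-rich proteins of the spliceosome environment, and SON is a large scaffold protein of nuclear speckles. Leng8 had 129, 112 and 128 CPM in KI 3, KI 4 and KI 5 and 87.5, 126 and 103 CPM in WT 1, WT 4 and WT 6, against 50.9, 60.7 and 46.5 CPM in KI 1, KI 2 and KI 6 and 45.8, 65.3 and 45.6 CPM in WT 2, WT 3 and WT 5. These and the following CPM are scaled by the TMM factors of edgeR, unlike those of Neat1 above. The log2 fold change of Leng8, Neat1-high over Neat1-low with genotype as a covariate, was 1.12 (SE 0.11) with an adjusted p of 0.000632 by edgeR's quasi-likelihood test. Pnisr had 57.7, 46.3 and 51.2 CPM in the Neat1-high KI hearts and 40.7, 55.8 and 49.8 CPM in the Neat1-high WT hearts, against 27.3, 34.6 and 26.2 CPM in the Neat1-low KI hearts and 25.3, 33.7 and 25.2 CPM in the Neat1-low WT hearts, in the same order of animals. Its lowest Neat1-high value was that of WT 1, the heart nearest to the boundary, and its highest Neat1-low value that of KI 2, which is next to the boundary on the other side. The log2 fold change of Pnisr was 0.81 (SE 0.10, adjusted p 0.000702).

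Srsf11 averaged 49.4 ± 4.57 CPM in Neat1-high and 32.6 ± 2.49 CPM in Neat1-low hearts (SD, n = 6 each), a log2 fold change of 0.60 (SE 0.07, adjusted p 0.000632). Son averaged 269 ± 18.5 CPM in Neat1-high and 191 ± 15.6 CPM in Neat1-low hearts, a log2 fold change of 0.49 (SE 0.06, adjusted p 0.000755). For both genes the highest Neat1-low heart was KI 2, with 37.3 CPM of Srsf11 and 213 CPM of Son. The lowest Neat1-high heart was WT 1 for both, with 44.2 CPM of Srsf11 and 246 CPM of Son. Reads were counted over the whole gene, introns included, so spliced and unspliced RNA of a gene cannot be told apart in these values.

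**Figure D1:**
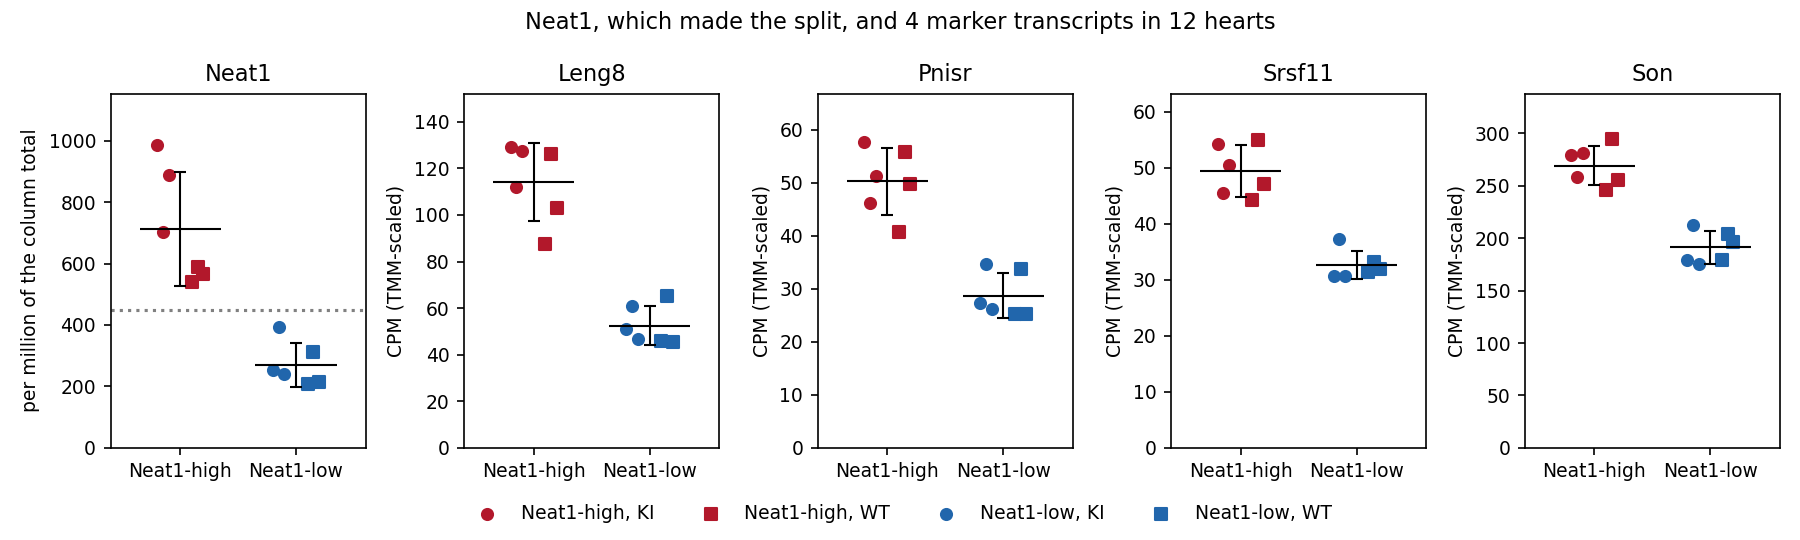
Unscaled CPM of Neat1 and TMM-scaled CPM of 4 marker transcripts in each heart; circles are KI and squares WT, horizontal lines are group means and bars the SD of 6 hearts. The dotted line is the boundary at 450, and in all 4 marker panels the 6 Neat1-high hearts lie above the 6 Neat1-low hearts.

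Beyond these markers, the difference between the groups was mostly a rise. Of 16050 genes tested, with Neat1 left out, 1091 were higher in Neat1-high hearts (6.80%) and 171 were lower (1.07%) at an adjusted p under 0.05, together 7.86%, so 86.5% of the calls were rises. The median log2 fold change was 0.56 over the genes called higher, -0.24 over those called lower and -0.01 over all genes tested. At least 2-fold differences were found for 199 of the genes called higher and 3 of those called lower. The 6 hearts of one group lay entirely apart from the 6 of the other for 580 genes (3.61%), with Neat1-high above Neat1-low in 3.21%, and 492 of these were called higher and 44 called lower. The rises were spread over all abundances, with 8.24% of genes called higher in the lowest tercile by average CPM, 7.72% in the middle and 4.43% in the highest. Scaling by the library total alone moved the median of all genes to 0.06 and the share of rises among the calls to 98.8%. Without KI 3, KI 4 and KI 5, 3 genes were called higher and 0 lower by edgeR, with 1352 higher and 519 lower at an unadjusted p under 0.05.

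Of the 32 transcripts listed for nuclear speckles and nuclear retention, all of which were tested, 27 were higher in Neat1-high hearts and 0 were lower, against 6.80% higher among all genes. This list too was drawn up with earlier results known. All 32 had positive values, with a median of 0.50 (log2), against -0.01 for all genes tested. Of its 32 members, 13 separated the groups without overlap, as did 3.61% of all genes. After Meg3 and Leng8, the largest fold changes were those of Rsrp1 (log2 0.84, adjusted p 0.0044), Pnisr, Ccnl2 (0.79, 0.00105), which encodes a cyclin of nuclear speckles, and Paxbp1 (0.76, 0.000632). Ddx17, an RNA helicase with roles in splicing, averaged 175 ± 14.7 CPM in Neat1-high and 122 ± 5.42 CPM in Neat1-low hearts (log2 0.51, SE 0.06, adjusted p 0.000632). Srrm2, which encodes a core protein of nuclear speckles, averaged 271 CPM in Neat1-high and 191 CPM in Neat1-low hearts (log2 0.50, adjusted p 0.00234). The members that missed the threshold were Malat1, Zc3h11a, Thoc2, Zranb2 and Rsrc2. Without KI 3, KI 4 and KI 5, 0 members were called by edgeR, 29 were higher and 0 lower at an unadjusted p under 0.05, and the median was 0.47.

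Malat1, the nuclear long noncoding RNA encoded beside Neat1, did not follow the split in 1 heart. It had 682, 479 and 534 CPM in KI 3, KI 4 and KI 5 and 565, 690 and 542 CPM in WT 1, WT 4 and WT 6. In the Neat1-low group it had 286, 695 and 322 CPM in KI 1, KI 2 and KI 6, and 321, 323 and 363 CPM in WT 2, WT 3 and WT 5. KI 2 thus lay at the level of the highest Neat1-high heart, WT 4, while its Neat1 was below the boundary. The log2 fold change was 0.61 (SE 0.19) with an adjusted p of 0.0785.

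Among genes for the SR proteins, 8 of 12 tested were higher and 0 lower (of 13 listed), beside 6.80% higher and 1.07% lower among all genes, with a median log2 fold change of 0.23. Srsf5 had 0.64 (adjusted p 0.0225), Tra2a 0.60 (0.00706), Srsf6 0.38 (0.0018) and Srsf2 0.36 (0.0354). Srsf6 averaged 81.3 ± 6.89 CPM in Neat1-high and 62.3 ± 2.05 CPM in Neat1-low hearts, with no overlap. Srsf3, at a log2 fold change of -0.01 (adjusted p 0.937), and Tra2b, at -0.05 (0.744), missed the threshold. Srsf11 and Tra2a stand in this list and in the speckle list. Of these 12 genes, edgeR made 0 calls without KI 3, KI 4 and KI 5, with 7 higher and 0 lower at an unadjusted p under 0.05.

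All 4 CLK kinases that phosphorylate SR proteins were higher in Neat1-high hearts. Clk1 and Clk4 each had a log2 fold change of 0.66 (adjusted p 0.019 for Clk1 and 0.0125 for Clk4). Clk3 averaged 32.2 ± 2.34 CPM in Neat1-high and 23.4 ± 0.996 CPM in Neat1-low hearts (log2 0.46, adjusted p 0.000632), with no overlap. Clk2 had 0.37 (adjusted p 0.00362), but it overlaps Gm45927 on the same strand, whose count was 2.96 times its own, so its value is uncertain. Prpf4b, a kinase of the spliceosome, had 0.30 (0.00952) and Srpk1, which phosphorylates SR proteins in the cytoplasm, 0.16 (0.0453). In all, 6 of 11 tested splicing kinases were higher and 0 lower (of 12 listed), beside 6.80% and 1.07% of all genes. The DYRK kinases of the list and Srpk2 missed the threshold with negative log2 fold changes between -0.17 and -0.06. In this list of 11, edgeR made 0 calls without KI 3, KI 4 and KI 5, with 6 higher and 0 lower at an unadjusted p under 0.05.

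The proteins that build paraspeckles with Neat1 behaved less uniformly. Of 20 tested, 4 were higher and 1 was lower, beside 6.80% and 1.07% of all genes, and the median log2 fold change was -0.01, the same as for all genes. Sfpq, an essential paraspeckle protein, averaged 104 ± 12.4 CPM in Neat1-high and 76.3 ± 8.38 CPM in Neat1-low hearts (log2 0.45, SE 0.09, adjusted p 0.00851). Its partners Nono and Pspc1 missed the threshold, with a log2 fold change of -0.09 for Nono (adjusted p 0.159) and an adjusted p of 0.991 for Pspc1. Cpsf7, a subunit of a 3′ end processing factor, had 0.37 (0.00333), Ewsr1 0.27 (0.00868) and Hnrnph3 0.21 (0.0254). Smarca4, the ATPase of a chromatin remodelling complex, was lower at -0.18 (0.0426). For the 20 genes, edgeR made 0 calls without KI 3, KI 4 and KI 5, with 5 higher and 0 lower at an unadjusted p under 0.05.

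Of 28 genes for the core spliceosome, 3 were higher and 2 were lower, beside 6.80% and 1.07% of all genes, and the median was -0.08. The 3 that rose are Snrnp70, U2af1 and U2af2, which encode the U1-specific 70K protein and the 2 subunits of the factor that binds the 3′ splice site. Snrnp70 had 106, 90.9 and 111 CPM in the Neat1-high KI hearts and 67.2, 95.8 and 85.0 CPM in the Neat1-high WT hearts, against 49.7, 61.7 and 51.3 CPM in the Neat1-low KI hearts and 46.4, 57.1 and 51.2 CPM in the Neat1-low WT hearts. The groups did not overlap, and the log2 fold change was 0.80 (SE 0.10, adjusted p 0.000632). U2af1 had 0.32 (0.00165) and U2af2 0.20 (0.00868). Prpf8, the central scaffold of the spliceosome, was lower at -0.19 (0.0347), and Sf3a1, a subunit of the U2 particle, at -0.21 (0.0326). For the 28 genes, edgeR made 0 calls without KI 3, KI 4 and KI 5, with 3 higher and 1 lower at an unadjusted p under 0.05.

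**Figure D2:**
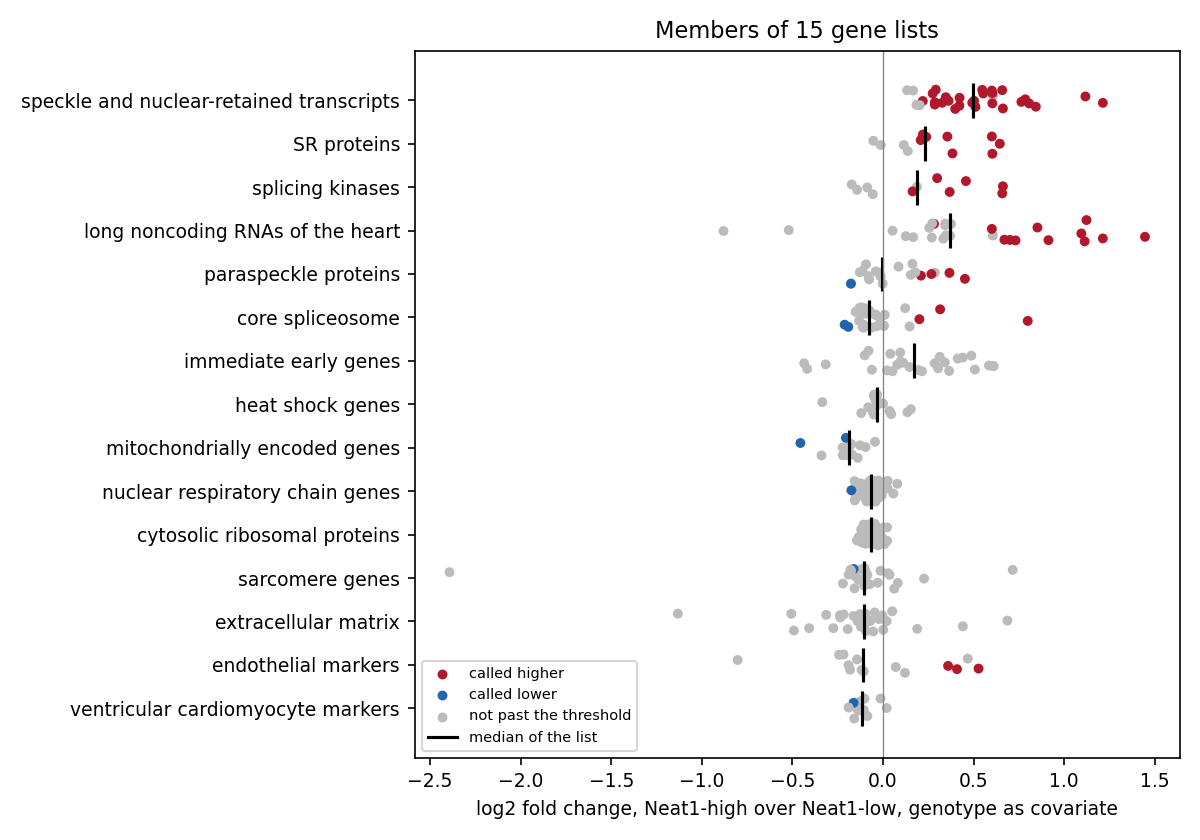
Log2 fold change of each member of 15 gene lists, Neat1-high over Neat1-low with genotype as a covariate; red and blue points passed an adjusted p of 0.05, grey points did not, and black bars are list medians. The speckle and nuclear-retained list has 27 of 32 members called higher, while the cytosolic ribosomal proteins lie close to 0 with none called.

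Long noncoding RNAs were called higher more often than protein-coding genes. Of 1681 long noncoding RNAs tested, 254 were higher (15.1%) and 5 lower, against 826 higher (5.81%) and 164 lower of 14228 protein-coding genes. Without Neat1, long noncoding RNAs took 0.590% to 0.760% of the counts in Neat1-high and 0.507% to 0.612% in Neat1-low hearts, with WT 6 the lowest Neat1-high and KI 2 the highest Neat1-low heart. A list of named long noncoding RNAs held cardiac ones and general ones such as Gas5 and the Snhg genes. Of its 27 tested members (of 31 listed), 12 were higher and 0 lower, beside 15.1% higher among all long noncoding RNAs. Their median log2 fold change was 0.37, and 25 had positive values. The others were H19, at -0.88 (adjusted p 0.213), and Chaer1, at -0.52 (0.223). For these 27 RNAs, edgeR made 0 calls without KI 3, KI 4 and KI 5, with 12 higher and 0 lower at an unadjusted p under 0.05.

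Meg3, Rian and Mirg, noncoding RNAs of the imprinted Dlk1-Dio3 region, were all higher. Meg3 had 21.4, 21.3 and 21.2 CPM in the Neat1-high KI hearts and 9.80, 15.3 and 15.0 CPM in the Neat1-high WT hearts, against 6.65, 9.85 and 7.76 CPM in the Neat1-low KI hearts and 5.44, 8.85 and 5.45 CPM in the Neat1-low WT hearts. WT 1 lay just under KI 2, so the groups overlapped by these 2 hearts, and the log2 fold change was 1.21 (SE 0.15, adjusted p 0.00068). Rian had a log2 fold change of 0.60 (adjusted p 0.00705) and Mirg 1.45 (0.00979), the second at a mean of only 0.400 CPM in Neat1-high and 0.144 CPM in Neat1-low hearts. Mhrt, a cardiac RNA from the myosin heavy chain locus, had 90.2, 74.7 and 115 CPM in the Neat1-high KI hearts and 102, 125 and 66.8 CPM in the Neat1-high WT hearts, against 32.7, 52.5 and 35.2 CPM in the Neat1-low KI hearts and 46.1, 54.1 and 45.7 CPM in the Neat1-low WT hearts. The groups did not overlap, with a log2 fold change of 1.11 (SE 0.16, adjusted p 0.00162). Carmn, an RNA of the heart and of smooth muscle, had 1.10 (0.00654) and Mir100hg, the host of several miRNAs, 0.91 (0.00258).

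Hand2os1, a long noncoding RNA divergent from the cardiac transcription factor gene Hand2, had one of the smallest adjusted p values (0.000632). It averaged 50.4 ± 2.52 CPM in Neat1-high and 36.0 ± 1.94 CPM in Neat1-low hearts, a log2 fold change of 0.49 (SE 0.05) with no overlap. Dnm3os, the host transcript of Mir199a2 and Mir214, had 4.20, 3.31 and 2.72 CPM in the Neat1-high KI hearts and 3.90, 2.69 and 3.05 CPM in the Neat1-high WT hearts, against 1.70, 1.36 and 1.62 CPM in the Neat1-low KI hearts and 0.740, 0.940 and 0.824 CPM in the Neat1-low WT hearts. No value overlapped, and the log2 fold change was 1.51 (SE 0.18, adjusted p 0.000632).

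Large rises were also found among protein-coding genes. Vsig2, an immunoglobulin-domain membrane protein, averaged 16.8 ± 1.98 CPM in Neat1-high and 5.39 ± 1.96 CPM in Neat1-low hearts (log2 1.64, adjusted p 0.000632). Spaca6, which encodes a sperm membrane protein and whose locus also holds miRNA genes, averaged 11.1 ± 2.13 CPM in Neat1-high and 4.38 ± 1.03 CPM in Neat1-low hearts (log2 1.34, adjusted p 0.000632). Setd4, a lysine methyltransferase gene, had 1.19 (0.000632), and Acrbp, which encodes an acrosin-binding protein of sperm, 1.21 (0.00575). Lgals4, a galectin gene, had 1.15 (0.0324) and Arrdc2, an arrestin-domain gene, 1.15 (0.0411), with overlap between the groups for both.

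Dffb, Slc20a1 and Atxn2l, which are among the genes with the smallest adjusted p values, encode proteins of other kinds. Dffb, a nuclease that cuts DNA in apoptosis, averaged 6.60 ± 0.981 CPM in Neat1-high and 3.26 ± 0.298 CPM in Neat1-low hearts (log2 1.02). Slc20a1, a phosphate transporter, averaged 29.1 ± 4.23 CPM in Neat1-high and 16.0 ± 1.43 CPM in Neat1-low hearts (log2 0.86). Atxn2l, a component of stress granules, averaged 53.6 ± 3.11 CPM in Neat1-high and 40.1 ± 1.35 CPM in Neat1-low hearts (log2 0.41). Each had an adjusted p of 0.000632 and no overlap between the groups.

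The falls were smaller and rested on fewer clear separations. Rrm2, a subunit of ribonucleotide reductase made in dividing cells, had the largest among named genes whose mean log2 CPM was 1 or more, with a log2 fold change of -1.02 (SE 0.29, adjusted p 0.0464). It had 11.0, 5.22 and 8.59 CPM in the Neat1-high KI hearts and 1.46, 5.71 and 3.03 CPM in the Neat1-high WT hearts, against 13.6, 23.8 and 10.8 CPM in the Neat1-low KI hearts and 5.86, 7.14 and 8.95 CPM in the Neat1-low WT hearts. The groups overlapped widely when the genotypes were pooled. Cfb, complement factor B, had -0.95 (0.0271), Scd2, a stearoyl-CoA desaturase gene, -0.68 (0.0299), Hic1, a transcriptional repressor gene, -0.59 (0.0357), Tnfsf10, the gene of the death ligand TRAIL, -0.53 (0.033) and Axin2, a target and inhibitor of Wnt signalling, -0.49 (0.0213). Rassf9, Zdhhc2 and Ppp1r3b, which encode an endosomal protein, a palmitoyltransferase and a glycogen-targeting phosphatase subunit, had -0.55, -0.48 and -0.48. Mir1902, at -0.55, lies inside Hipk3, whose count was 116 times as large, so its value is uncertain.

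The firmest fall was that of Podxl, which encodes podocalyxin, a sialomucin of endothelial surfaces. Podxl had 106, 131 and 125 CPM in the Neat1-high KI hearts and 126, 123 and 118 CPM in the Neat1-high WT hearts, against 139, 166 and 169 CPM in the Neat1-low KI hearts and 169, 171 and 165 CPM in the Neat1-low WT hearts. The groups did not overlap, with a log2 fold change of -0.42 (SE 0.06, adjusted p 0.00153). Wscd1, a sulfotransferase-like gene, also showed no overlap, at 5.43 ± 0.541 CPM in Neat1-high and 7.51 ± 1.02 CPM in Neat1-low hearts (log2 -0.46, adjusted p 0.00689). Gmps, which makes guanosine monophosphate, had -0.26 (0.00282), Tmed7, a cargo receptor of the early secretory pathway, -0.25 (0.00478) and Phyhip -0.30 (0.00554), each with overlap.

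**Figure D3:**
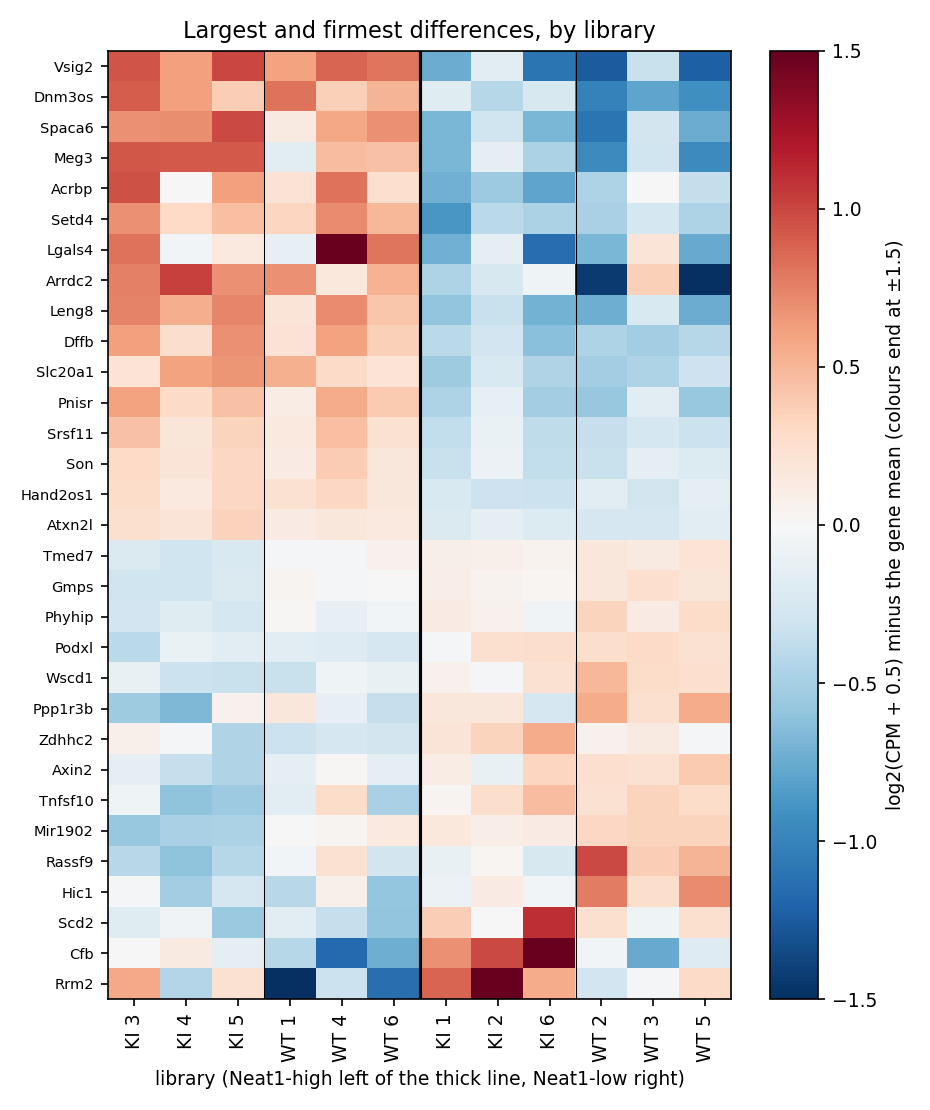
Log2(CPM + 0.5) minus the gene's mean for 31 genes with the largest or firmest differences and the markers, in each of 12 libraries, sorted by the log2 fold change from the highest at the top. The left side holds the Neat1-high hearts, KI before WT, and the right side the Neat1-low hearts in the same order; rises were seen in both genotypes, while for Rrm2 and Cfb the KI hearts of a group were also mostly above its WT hearts.

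The split could be followed separately in each genotype, and these 2 comparisons share no library. The fit without KI 3, KI 4 and KI 5 makes the same contrast as that within WT, with the spread estimated from fewer hearts. Its values and those within WT are therefore not separate results. Among KI hearts 487 genes were higher (3.03%) and 209 lower (1.30%) in the Neat1-high hearts, together 4.34%. Among WT hearts 51 were higher (0.318%) and 0 were lower (0.00%) by edgeR, with 1569 higher and 666 lower at an unadjusted p under 0.05. DESeq2 called 327 higher and 45 lower within WT, and voom 445 and 38. The within-WT count moved widely when 1 heart was left out. It was 1 without WT 2 or WT 5, 2 without WT 4 or WT 6, 119 without WT 1 and 114 without WT 3. KI hearts enter it through the shared estimate of the spread, and it was 2 without KI 5, 3 without KI 1, 10 without KI 3 and 19 without KI 6. The smaller count does not show that the genotypes differ. The difference between them was tested directly, and 0 genes were called by edgeR, with 1272 at an unadjusted p under 0.05 and a smallest adjusted p of 0.235, while DESeq2 called 49 and voom 4.

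Genes called in one genotype mostly had the same sign in the other. Of the 487 genes called higher within KI, 472 (96.9%) had positive values within WT, where 49.1% of all genes did. Their median log2 fold change was 0.70 within KI and 0.45 within WT. All 51 genes called higher within WT had positive values within KI, with medians of 0.80 within WT and 0.70 within KI. The genes called higher in both numbered 47, which is 92.2% of the WT calls and 9.65% of the KI calls. The genes called lower within KI were less alike across genotypes. Of these 209, 157 (75.1%) had negative values within WT, where 50.9% of all genes did, and their median was -0.39 within KI and -0.05 within WT. For the speckle list all 32 members were positive within each genotype, the median was 0.48 within KI and 0.47 within WT, and 13 members were called within KI and 5 within WT. Those 5 are Leng8, Srsf11, Paxbp1, Nktr and Ddx17.

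**Figure D4:**
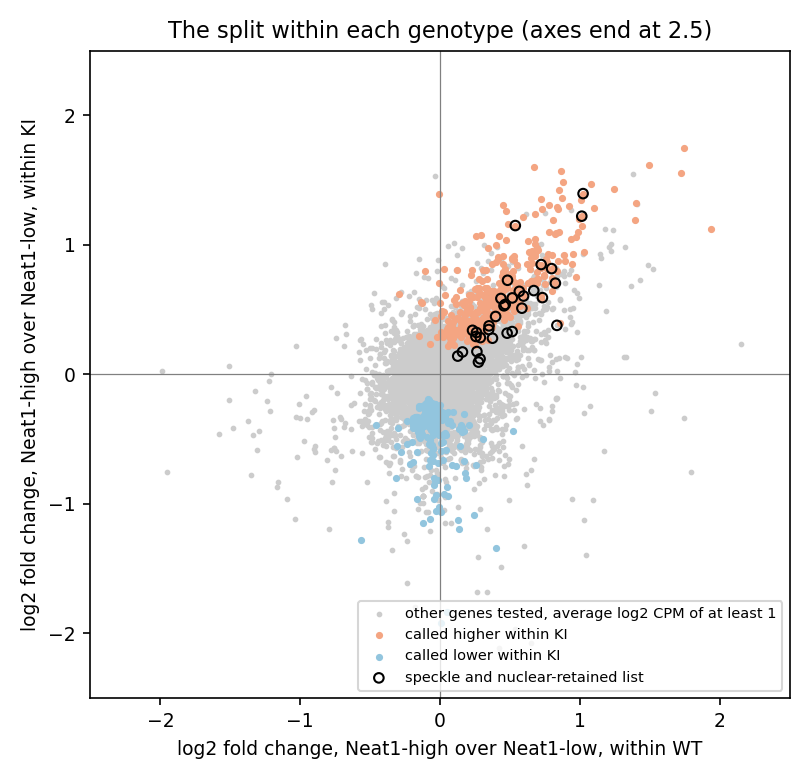
Log2 fold change of Neat1-high over Neat1-low hearts within KI (vertical) and within WT (horizontal), for genes whose average log2 CPM was 1 or more; 9 genes lie outside the axes. Genes called higher within KI (orange) lie mostly right of 0, with a median of 0.45 within WT. Genes called lower within KI (light blue) lie mostly left of 0 but near it, with a median of -0.05 within WT. All members of the speckle list (open circles) lie in the upper right.

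The protein-coding genes that were higher in Neat1-high hearts shared features of structure that the split did not use. Their gene models were taken from GENCODE M21, which matched 14044 of 14228 protein-coding genes tested. Genes are not replicates, so these values are a description with no test. The median intron of a gene was 904 bases long at the median of the genes called higher, 1803 bases for those called lower and 1526 bases for all tested. By quartiles of median intron length, 10.1% of genes in the quartile with the shortest introns were called higher, 6.38% in the second, 4.83% in the next and 2.09% in the quartile with the longest. The median span of the whole gene was 22345 bases for those called higher, 22722 for those called lower and 24346 for all tested.

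Genes called higher also had more exons, a median of 12 against 8 for those called lower and 9 for all tested. Their transcripts were richer in G and C, at a median of 53.2%, against 47.6% for those called lower and 50.7% for all tested. The share called higher was 4.02%, 4.59%, 5.92% and 8.43% over quartiles of GC content, low to high. A transcript annotated as retaining an intron existed for 73.6% of the genes called higher, 52.1% of those called lower and 56.7% of all tested. Genes called higher also had more annotated transcripts of any kind, a median of 7 against 4 for those called lower and 5 for all tested, and its part in these shares was not tested. The same shares were taken within terciles of abundance. They were 59.6%, 26.7% and 43.7% for genes called higher, called lower and all tested in the lowest tercile. They were 81.5%, 46.2% and 59.7% in the middle tercile and 80.1%, 59.4% and 66.3% in the highest. A transcript annotated as a target of nonsense-mediated decay existed for 47.9% of genes called higher, 22.1% of those called lower and 27.4% of all tested. Another gene on the same strand lay within 5 kb upstream for 27.4% of those called higher, 15.9% of those called lower and 16.9% of all tested.

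Leng8 illustrates several of these features, with 16 exons, a median intron of 345 bases, a shortest intron of 81 bases and an annotated retained-intron transcript. Snrnp70 had 11 exons, a median intron of 850 bases and annotated transcripts of both kinds. Pnisr and Ddx17 had no annotated retained-intron transcript, and the median introns of Pnisr (1715 bases) and Son (1688 bases) were longer than the median of all genes.

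**Figure D5:**
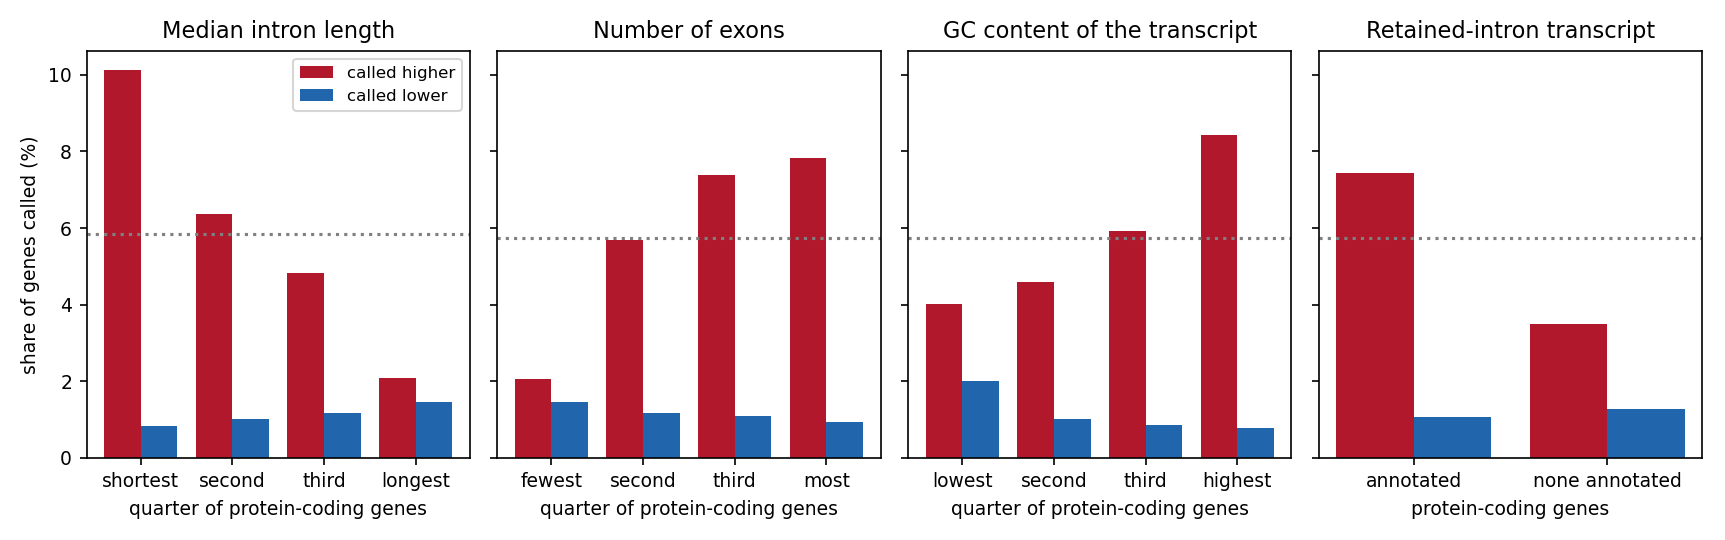
Share of protein-coding genes called higher (red) and lower (blue) in Neat1-high hearts, by quartile of median intron length, of exon number and of transcript GC content, and by whether a retained-intron transcript is annotated; the dotted line is the share called higher over all genes in the panel. The share called higher was 10.1% in the quartile with the shortest introns and 2.09% in that with the longest.

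Messenger RNAs for the respiratory chain and the ribosomes gave few calls by edgeR, and all of them were falls. Of 13 mRNAs of the mitochondrial chromosome, 0 were higher and 2 were lower, beside 6.80% higher and 1.07% lower among all genes. The share called lower was thus above that of all genes. All 13 had negative values and the median was -0.19, against -0.01 for all genes tested. ND1, a subunit of respiratory complex I, had -0.20 (SE 0.05, adjusted p 0.0383), and ND6, another subunit of it and the only one of these mRNAs encoded on the other strand, had -0.46 (SE 0.12, adjusted p 0.0366). With the mitochondrial genes left out of the totals the median of all genes was -0.03. Of 54 nuclear genes of the respiratory chain, Atp5a1, a subunit of ATP synthase, was lower (log2 -0.17, adjusted p 0.0485), 0 were higher and the median was -0.07, while DESeq2 called 13 lower. Of 76 cytosolic ribosomal protein genes, 0 were called by edgeR, 0 were higher and 19 lower at an unadjusted p under 0.05, and 72 had negative values, with a median of -0.06. DESeq2 called 13 of the 76 lower and voom 6. Of 38 mitochondrial ribosomal protein genes 0 were called by edgeR, DESeq2 or voom, 0 had an unadjusted edgeR p under 0.05 and 12 had positive values. Under scaling by the library total the median of all genes moved to 0.06, beside the median of -0.06 of the cytosolic ribosomal list. The part of the scaling in these small values was not tested.

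Genes of contraction and excitation gave few calls, which stand beside 6.80% higher and 1.07% lower among all genes. Of 25 sarcomere genes tested, Tnni3, cardiac troponin I, was lower at -0.16 (adjusted p 0.0339) and 0 were higher. Of 14 genes for calcium handling, Atp2a2, the calcium pump of the sarcoplasmic reticulum, was lower at -0.21 (0.0299) and Hrc, a calcium-binding protein of the same compartment, at -0.20 (0.0286). Of 22 cardiac ion channel genes 0 were called by edgeR, with 0 higher and 7 lower at an unadjusted p under 0.05, while DESeq2 called 3 lower and voom 4. Of 27 genes of fatty acid oxidation, Etfb, an electron carrier, was lower at -0.14 (0.0465). In the sarcomere, calcium handling and fatty acid lists the share called lower was above the 1.07% of all genes. In the sarcomere and fatty acid lists this rests on 1 gene each. Among all genes in the highest tercile by average CPM, 1.94% were called lower. Of 34 large genes for chromatin and nuclear scaffolds, Med12, a subunit of Mediator, was higher at 0.42 (0.0108) and 0 were lower. That share called higher was below the 6.80% of all genes.

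Markers of heart cell types were checked because the tissue is a mixture, and in bulk RNA fewer cells of a type and less RNA per cell cannot be told apart. Ventricular cardiomyocyte markers summed to 55871 to 62368 CPM in Neat1-high and 58313 to 68922 CPM in Neat1-low hearts. Of 12 tested, 1 was lower, Tnni3, beside 1.07% lower among all genes. Endothelial markers summed to 1468 to 1636 CPM in Neat1-high and 1442 to 1860 CPM in Neat1-low hearts. Of these 14 markers 3 were higher, beside 6.80% of all genes, namely Rasip1 (log2 0.53, adjusted p 0.00523), Egfl7 (0.41, 0.0154) and Esam (0.36, 0.00425). The median of the list was -0.11. Among the members that missed the threshold, Cldn5 had 0.47 (0.207), while Vwf had -0.80 (0.0782) and Cdh5 -0.22 (0.0703). Fibroblast markers summed to 1604 to 2520 CPM in Neat1-high and 1642 to 3409 CPM in Neat1-low hearts, macrophage markers to 274 to 462 and 259 to 429 CPM, and pericyte and smooth muscle markers to 2479 to 2981 and 2593 to 3098 CPM. In each of these 3 lists of 12 markers 0 were called by edgeR, DESeq2 or voom, and 0 had an unadjusted edgeR p under 0.05. Atrial markers summed to 673 to 2530 CPM in Neat1-high and 629 to 3294 CPM in Neat1-low hearts, with 0 of 6 tested called by edgeR, DESeq2 or voom and 1 lower at an unadjusted edgeR p under 0.05. Every one of these markers was highest in KI 6, a Neat1-low heart, so the sums hide the difference of this heart. Myl4 had 223 CPM in KI 6, against 3.08 to 5.29 CPM in the other hearts, and Dkk3 had 64.4 CPM, against 1.78 to 12.8 CPM.

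KI and WT hearts were compared by their labelled genotypes, once with the split made from measured Neat1 as a term and once without it. With the split as a term, 977 genes were higher in KI hearts (6.09%) and 1026 lower (6.39%), together 12.5% of 16050. Without it 696 were higher (4.34%) and 683 lower (4.26%), together 8.59%. Lemd2 itself was lower in KI hearts under both fits, at a log2 fold change of -0.37 (SE 0.06, adjusted p 0.00403) with the split as a term and -0.36 (SE 0.08, adjusted p 0.0206) without it. Along the split Lemd2 had 24.7, 22.4 and 23.9 CPM in the Neat1-high KI hearts and 29.2, 27.6 and 28.5 CPM in the Neat1-high WT hearts, against 20.0, 17.3 and 19.3 CPM in the Neat1-low KI hearts and 28.7, 24.0 and 26.1 CPM in the Neat1-low WT hearts. Within KI the Neat1-high hearts all lay above the Neat1-low hearts, and within WT the groups overlapped. Its log2 fold change along the split was 0.22 (SE 0.06, adjusted p 0.0482). Without KI 3, KI 4 and KI 5, which leaves 3 KI hearts, all of them Neat1-low, 0 genes were higher and 0 lower by edgeR. At an unadjusted p under 0.05, 1365 were higher and 1119 lower, while DESeq2 called 305 higher and 191 lower and voom 74 and 35. The fold changes moved little. Of the 977 genes called higher in all hearts, 958 could be tested without these 3 and all 958 had positive values, with a median of 0.54, against 0.56 in all hearts. All 1026 genes called lower had negative values, with a median of -0.25, against -0.28 in all hearts. These fits share 9 hearts. With the mitochondrial share as a covariate edgeR also called 0 in both directions, with 1074 higher and 1389 lower at an unadjusted p under 0.05, while DESeq2 called 107 and 203 and voom 56 and 129. None of the 32 transcripts of the speckle list was called between the genotypes beside the split, and their median log2 fold change, KI over WT, was 0.01.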

How the data were processed

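RNA-seq libraries from 12 mouse hearts were analysed, 6 KI and 6 WT. The values are expected counts per gene that the authors deposited in 1 table per the file headers, made with featureCounts 1.6.4 on the reverse strand over whole gene spans, introns included, against RefSeq gene models of GRCm38.p6. Reads that matched several places or several genes were split as fractions, so 42.4% to 47.5% of the nonzero values per library are not whole, and genes that overlap or have close copies can share reads. The submitters' processing notes name cutadapt 2.5 and STAR 2.7.2b. The library kit was TruSeq Stranded mRNA, per the labels' protocols. The counts were rounded to whole numbers. Total counts are given in the text, and their counting error is small beside the spread between hearts for all but the rarest genes.

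Neat1-high was defined as at least 450 Neat1 CPM, taken over the column total. Neat1 was left out of every test. The main test was edgeR 4.0.16 (quasi-likelihood, TMM factors, filterByExpr at 10 counts per library and 15 in all, R 4.3.3) with genotype as covariate, and adjusted p is Benjamini-Hochberg over all genes tested, called under 0.05. The comparisons within KI and within WT, and the difference between them, came from a model with 4 groups. Means and SDs are over CPM scaled by TMM factors. DESeq2 1.42.0 and voom with quality weights (limma 3.58.1) were alternatives, beside other scalings, filters, covariates and omitted libraries. The fits without KI 3, KI 4 and KI 5, the fit without KI 2, and DESeq2 and voom on KI against WT with the mitochondrial share were chosen after seeing the data. The scripts were tested on simulated data. Figures were drawn with matplotlib 3.10.9.

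The members, the marker transcripts and the gene lists were chosen with earlier results of these data known. The genes named are the 4 markers, the 10 largest rises and 10 largest falls at a mean log2 CPM of 1 or more and with the same direction in both genotypes, the 5 smallest adjusted p values in each direction, up to 3 members of each list and Lemd2. Unnamed gene models were not eligible, and a few genes that the rule names are not reported here. The other list members named, such as Malat1, Srsf3, Tra2b, Nono and Pspc1, were chosen after their values were seen. The labels give 1 library per animal. Gene models were GENCODE M21, matched for 15083 of 16050 genes by identifier. Replicate numbers are shared between genotypes but do not pair the animals.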

Additional observations from a re-analysis of the deposited data

Results flagged for a closer look

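Over 4 library measures and part of the genes named in the text, 126 sets of 6 hearts were examined for a single heart far from the others. Chance gives this in about 1 of 20, and 4 were found. All 4 lie in the Neat1-low group. Podxl had 139 CPM in KI 1, against 165 to 171 CPM in the other Neat1-low hearts. Esam, a junction protein gene of endothelial cells, had 65.9 CPM in KI 6, against 51.6 to 56.5 CPM in the others. Scd2 had 44.1 CPM in KI 6, against 19.2 to 26.1 CPM in the others. Klf15 had 59.3 CPM in WT 3, against 40.7 to 46.3 CPM in the others. Malat1 and Dkk3 were not among the sets examined, but each also had a Neat1-low heart far from the others. Malat1 had 695 CPM in KI 2, against 286 to 363 CPM in the other Neat1-low hearts. Dkk3 had 64.4 CPM in KI 6, against 1.88 to 4.88 CPM in the other Neat1-low hearts.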

How the results depend on the processing

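All 1262 calls of the split kept their direction under each alternative in which they were tested. Scaled by the library total alone, the split gave 1685 higher and 21 lower (98.8% higher), 63 lower within KI, 282 higher and 1 lower within WT, and 4032 higher and 250 lower for KI against WT. DESeq2 gave 603 lower along the split (66.9% of calls higher), 587 lower within KI, 327 higher and 45 lower within WT, and 49 for the difference between genotypes. Voom gave 521 lower along the split (73.7% of calls higher), 1197 higher and 818 lower within KI, 445 higher and 38 lower within WT, and 4 for the difference. Within WT no filter gave 143 higher and 7 lower, and CPM above 1 in 6 libraries 90 higher and 2 lower. Without the genotype covariate 45 were lower, and against a fold of 1.2 there were 300 higher and 0 lower. For KI against WT the mitochondrial share as covariate gave 0 higher and 0 lower. Without KI 3, KI 4 and KI 5 the split gave 3 higher and 0 lower, and KI against WT 0 and 0, by edgeR. The cause was not tested for any of these.

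The replicate numbers do not pair the animals: same-numbered hearts had correlations of -0.27 to 0.06. With the replicate number as a block the split gave 78 higher and 1 lower, and KI against WT 336 higher and 294 lower.

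Leaving out 1 heart at a time gave 642 to 1288 higher and 48 to 328 lower along the split, 99 to 587 higher and 33 to 286 lower within KI, 1 to 119 higher and 0 to 18 lower within WT, 0 to 1 for the difference, and 566 to 1036 higher and 578 to 1096 lower for KI against WT. The count of rises moved by over 1.5 times without KI 1 (642), KI 3 (686), WT 2 (697) or KI 5 (716). The count of falls did so without KI 5 (48), KI 3 (57), KI 4 (58), KI 1 (81), WT 5 (85), KI 2 (86), WT 1 (323) or WT 3 (328). The speckle list kept 20 to 27 calls when 1 heart was left out.

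List members named by the rule changed sign in 10 of 3237 values. These were Pnpla2 (0.011) by library total, Dkk3 (0.030) by voom, Hlf (0.16) with the mitochondrial share, Alas2 (0.13) and Pnpla2 (0.0037) under the block, and Cd8a (0.010), Col1a2 (0.073) and Csf1r (0.084) without KI 3, KI 4 and KI 5. With 1 heart left out, Dkk3 ranged from -1.20 to 0.41 and Hlf from -0.49 to 0.093. None of them was called along the split. Genes with few counts are limited by depth.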

Other observations

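Targets of the glucocorticoid receptor, the receptor of the stress hormone corticosterone, had positive log2 fold changes along the split in all 17 genes tested, with a median of 0.38, against -0.01 for all genes. Only 1 of the 17, Klf15, a transcription factor of heart metabolism, was called higher by edgeR (log2 0.39, adjusted p 0.0322), a share close to the 6.80% of all genes called higher. DESeq2 called 2 of them and voom 6, and 8 had an unadjusted edgeR p under 0.05. Without KI 3, KI 4 and KI 5 the median was 0.35, 15 of 17 were positive and 0 were called by edgeR, with 4 higher and 0 lower at an unadjusted p under 0.05. Immediate early genes, which respond within minutes to stimulation, had a median of -0.14 within KI and 0.54 within WT. Among the Neat1-low KI hearts KI 2 had the highest value for 17 of the 28 genes tested, and Egr1 had 161 CPM in KI 2, against 45.8 CPM in KI 1 and 78.6 CPM in KI 6. Without KI 2 the median within KI was 0.08. Of these 28 genes 0 were called along the split by edgeR, with 4 higher and 0 lower at an unadjusted p under 0.05, while DESeq2 called 1 and voom 3. The difference of the 2 medians was not tested.

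Other programs of stress gave few calls. Of 18 hypoxia targets, Vegfa, the vascular growth factor gene, was higher (log2 0.55, adjusted p 0.0203), and of 20 targets of p53, Fas, a death receptor gene, was higher (0.46, 0.029), neither share being above the 6.80% of all genes. Of 18 heat shock genes and 19 genes of the circadian clock 0 were called by edgeR, DESeq2 or voom, and 0 of either list had an unadjusted edgeR p under 0.05. Of 16 genes of the integrated stress response 0 were called by edgeR, with 1 higher and 2 lower at an unadjusted p under 0.05, and voom called 1. Of 32 genes of the extracellular matrix 0 were called by edgeR, with 1 higher and 1 lower at an unadjusted p under 0.05, and voom called 1 in each direction.

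In a principal component analysis of log2 CPM, the second component, with 17.6% of the variance, took values of 3.07 to 27.5 in Neat1-high and -35.9 to 7.17 in Neat1-low hearts, so the groups overlapped along it. The first component held 25.5% of the variance. On it KI 3, KI 4 and KI 5 had 33.8, 28.1 and 27.4, above every other heart, the next being KI 6 at 12.4.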
